A study of Mus musculus with 15 samples.

Results

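The comparison of cells given an siRNA against Hif1a with untreated cells rests on 6 of the 15 RNA-seq libraries of the series, 3 for each group, chosen by their group labels. All libraries come from B16.F10, a pigmented mouse melanoma line grown as a monolayer and kept in 1% oxygen with 10% serum. The Control group received no siRNA and no drug. The Hif1a_siRNA group was reverse-transfected with lipoplexes (siRNA bound to a carrier lipid) holding 25 nM of an siRNA against Hif1a. A further group, NC_siRNA, received the same dose of a negative control siRNA, and its 3 libraries are shown beside the comparison, since the step from Control to Hif1a_siRNA holds transfection and knockdown together. The remaining 6 libraries are of doxorubicin-treated cells and enter here only in an alternative fit. The time between transfection and harvest is not given in the sources used here for the groups without the drug, and neither is the siRNA sequence. A transient siRNA lowers the RNA without removing the gene, and 1 line was studied. Of the 13172 genes listed for Control, 12894 are also listed for Hif1a_siRNA and were compared.

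HIF-1 is a transcription factor made of an oxygen-regulated subunit, encoded by Hif1a, and a constant partner, encoded by Arnt. In well-oxygenated cells prolyl hydroxylases (Egln genes) mark the subunit for destruction by the Vhl ubiquitin ligase, and in hypoxia it accumulates, pairs with Arnt and binds hypoxia response elements in the DNA. Its textbook targets raise glucose uptake and glycolysis, restrain mitochondrial pyruvate use, induce angiogenic factors, regulate acid and collagen handling, and feed back on HIF itself.

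Levels are in CPM, the reads of a gene scaled to its library's TMM-corrected total, and appear for replicates 1, 2 and 3 of a group in that order, with means as ± SD (n = 3). The libraries held 25898384 to 26434083 counted reads in Control, 26345967 to 27394448 in NC_siRNA and 27433068 to 27926937 in Hif1a_siRNA. The labels call them biological replicates but do not say whether separate cultures were used. If not, the p-values reflect only spread among these libraries, which may be technical. No pair within a group agreed within sampling noise (chi-square per degree of freedom 3.53 to 16.2). On the first principal component (63.5% of the variance) the Hif1a_siRNA libraries stood apart from the other 6, and the second (27.9%) separated Control from NC_siRNA. Melanocyte genes such as Tyrp1, Dct and Pmel were abundant in all 9 libraries. Of marker genes for other cells that a culture could hold, the tables list 1 of 10 for macrophages (Cd68), 1 of 8 for T cells (Lck), 1 of 8 for endothelium (Vwf), 0 of 8 for keratinocytes and 4 of 9 for fibroblasts, the last summing to 29.9 to 32.0 CPM in Control and 24.6 to 27.1 in Hif1a_siRNA. Cd68, which also marks lysosomes, ranged from 19.3 to 30.3 CPM in Control, 13.2 to 18.3 in NC_siRNA and 7.23 to 7.68 in Hif1a_siRNA. The other 9 macrophage markers are not listed in both groups. In bulk RNA, fewer cells of a type and less RNA per cell cannot be told apart.

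Hif1a itself (gene ID 15251, chromosome 12, 73901324 to 73947554 in GRCm38) was measured at 206, 237 and 220.2 CPM in Control, 299, 280 and 275 in NC_siRNA and 16.6, 15.9 and 18.9 in Hif1a_siRNA. The knockdown libraries lay far below all the others and no groups overlapped. The log2 fold change against Control was −3.71 ± 0.08 SE, a 13.1-fold decrease (edgeR quasi-likelihood adjusted p = 7.5e-13). The negative control siRNA left Hif1a slightly higher than in untreated cells (0.36 ± 0.06 SE), so the decrease against NC_siRNA was larger (−4.05 ± 0.08 SE).

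Across the transcriptome, 9942 of 12894 genes (77.1%) passed an adjusted p of 0.05 in edgeR's quasi-likelihood test and are said to be called, 5089 of them higher (39.5%) and 4853 lower (37.6%) after the Hif1a siRNA. With so many calls, a share of a gene group near these percentages says nothing particular about the group. Lack of overlap was as common: of the 12894 genes, the Hif1a_siRNA libraries lay wholly above Control for 5396 and wholly below for 4847. A lack of overlap between these groups, given below for single genes, is therefore not particular to them. The median log2 fold change of all genes was 0.01. TMM scaling centres the changes, so this median and the near-even split cannot show a shift shared by most genes. Large changes were uneven in direction: 1910 genes were called higher and 1617 lower by at least 2-fold, but 22 higher and 214 lower by at least 8-fold. In a fit of 9 libraries and 12766 genes, NC_siRNA against Control called 4709 genes higher (36.9%) and 4380 lower (34.3%), and Hif1a_siRNA against NC_siRNA called 4551 higher (35.6%) and 4601 lower (36%). These comparisons share libraries with the one described here, so their values are set side by side gene by gene. Values against NC_siRNA and of NC_siRNA against Control come from that fit, all others from the fit of the 6 libraries.

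The core of the hypoxia response element, ACGTG or GCGTG, stood near the start of most known HIF targets, those that fell and those that did not. Both strings of letters were searched on both strands of RefSeq promoters of GRCm38.p6, from 250 bases before to 50 after the start (300 bases), where the palindrome CACGTG counts on each strand. The core stood in 43.8% of all 32851 promoters in the table and in at least 1 promoter of 68.5% of the 9630 tested genes with an entry. It was present for 17 of 20 genes of glucose uptake and glycolysis (85.0%) and for 25 of 25 HIF targets outside glycolysis (100%). Members of the latter list with the core included Wsb1, which rose (1.09), and Narf, Kdm4c, Anln and Bhlhe41, which changed little (0.18, −0.17, −0.19 and −0.13). A match is a description of letters and does not show binding. Windows of 150 bases before the start are shown for 5 of the strong decreases, 5′ to 3′ on the gene's strand, with the core, or its complement where it lies on the other strand, in capitals.
Car9 (chr4:43506876-43507025, plus strand): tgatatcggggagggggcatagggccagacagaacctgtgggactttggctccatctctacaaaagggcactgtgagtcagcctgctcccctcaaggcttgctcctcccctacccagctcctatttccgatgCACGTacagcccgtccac
Ankrd37 (chr8:45999851-46000000, minus strand): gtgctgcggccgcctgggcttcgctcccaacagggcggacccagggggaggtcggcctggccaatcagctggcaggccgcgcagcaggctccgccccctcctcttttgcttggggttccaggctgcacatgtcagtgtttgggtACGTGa
Higd1a (chr9:121857797-121857946, minus strand): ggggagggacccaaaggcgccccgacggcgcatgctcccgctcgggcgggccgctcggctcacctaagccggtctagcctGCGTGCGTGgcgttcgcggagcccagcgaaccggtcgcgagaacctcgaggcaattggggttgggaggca
Fam162a (chr16:36071562-36071711, minus strand): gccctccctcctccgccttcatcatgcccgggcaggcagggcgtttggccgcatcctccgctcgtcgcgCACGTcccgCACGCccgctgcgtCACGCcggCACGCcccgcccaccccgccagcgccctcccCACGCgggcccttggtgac
Bnip3 (chr7:138909507-138909656, minus strand): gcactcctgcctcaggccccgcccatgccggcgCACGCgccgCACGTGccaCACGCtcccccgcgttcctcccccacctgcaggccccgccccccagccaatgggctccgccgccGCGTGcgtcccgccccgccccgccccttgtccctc
Car9 and Ankrd37 have a core just before the start of transcription, while Fam162a and Bnip3 hold several close together.

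All 5 of these genes fell. Car9 (carbonic anhydrase 9, which exports acid equivalents) was measured at 236, 229 and 251 CPM in Control, 237, 271 and 264 in NC_siRNA and 8.76, 9.74 and 9.20 in Hif1a_siRNA. Ankrd37, an ankyrin repeat gene, was measured at 255, 233 and 263 CPM in Control, 118, 133 and 129 in NC_siRNA and 9.22, 10.7 and 10.2 in Hif1a_siRNA. Higd1a, a small mitochondrial inner membrane protein, was measured at 1039, 1075 and 1092 CPM in Control, 588, 630.5 and 676 in NC_siRNA and 61.7, 59.4 and 59.6 in Hif1a_siRNA. In each of these the Hif1a_siRNA libraries lay below both other groups without overlap, by log2 fold changes against Control of −4.72 ± 0.07 SE, −4.66 ± 0.08 SE and −4.17 ± 0.05 SE. Fam162a (a hypoxia-induced mitochondrial protein) was measured at 949, 924 and 909.8 CPM in Control, 666, 643 and 691 in NC_siRNA and 74.9, 70.9 and 72.3 in Hif1a_siRNA. Bnip3, a receptor for mitophagy, was measured at 1269, 1435 and 1325 CPM in Control, 1414, 1474 and 1314 in NC_siRNA and 144, 148.7 and 144 in Hif1a_siRNA. Both fell (−3.70 ± 0.05 SE and −3.23 ± 0.05 SE), and Bnip3 did not differ detectably between NC_siRNA and Control (0.06 ± 0.05 SE). Ankrd37 and Higd1a were already lower with the negative control siRNA (−0.98 and −0.76), with a further change of −3.65 and −3.39 from NC_siRNA to Hif1a_siRNA.

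Among 11 tested subunits and regulators of HIF, Hif1a included, 7 were lower and 3 higher, with a median of −0.78. In NC_siRNA 10 of the 11 were higher than in Control and 0 lower (median 0.69). Against NC_siRNA 9 were lower in Hif1a_siRNA and 2 higher (median −1.53). Egln1, the main oxygen-sensing prolyl hydroxylase, was measured at 197, 210.1 and 232 CPM in Control, 493, 518 and 509 in NC_siRNA and 27.6, 31.01 and 30.5 in Hif1a_siRNA. It fell by 2.87 on the log2 scale against Control although NC_siRNA raised it by 1.25. Egln3, a related hydroxylase with hypoxia-inducible expression, was measured at 3.91, 2.48 and 2.95 CPM in Control, 18.5, 18.8 and 16.2 in NC_siRNA and 1.30, 0.877 and 1.14 in Hif1a_siRNA. Its change of −1.52 against Control therefore stood beside one of −4.01 against NC_siRNA. Vhl (−1.41), Cited2, a competitor of HIF for its coactivators (−1.08), and Epas1, which encodes the alternative subunit HIF-2α (−0.78), also fell. For Cited2 and Epas1 the negative control siRNA moved the level upward (0.69 and 1.15). Arnt was nearly level (−0.21 ± 0.05 SE). The 3 that rose against Control were Siah1a (1.504), Siah2 (0.19) and Hif1an (0.90). Siah1a and Siah2 are ubiquitin ligases that act on the hydroxylases, and Hif1an is the asparaginyl hydroxylase that inhibits HIF. The call of Siah2 was lost with RLE or upper-quartile factors and with DESeq2. Egln2 was not called (0.09 ± 0.09 SE, adjusted p = 0.38).

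Glucose uptake and glycolysis fell almost as a whole: 19 of 21 tested genes were lower, 1 was higher, and the median was −2.89. Entry of glucose through Slc2a1 (the transporter GLUT1) was measured at 532, 459 and 465 CPM in Control, 633, 665 and 667 in NC_siRNA and 49.3, 52.01 and 51.9 in Hif1a_siRNA. Hexokinase 1, which phosphorylates the sugar, was measured at 606, 606 and 614 CPM in Control, 495, 492 and 512 in NC_siRNA and 66.3, 70.1 and 70 in Hif1a_siRNA. Both fell without overlap (−3.28 ± 0.07 SE and −3.17 ± 0.05 SE). Further down the pathway the largest decreases were in Gapdh (−3.88 ± 0.05 SE), Aldoc (−3.64 ± 0.08 SE) and Ldha (−3.57 ± 0.05 SE), the last being the subunit of lactate dehydrogenase that makes lactate. Ldha was measured at 7195, 6472 and 6601 CPM in Control, 3937, 3840.5 and 3990.3 in NC_siRNA and 574, 579 and 589 in Hif1a_siRNA. Gapdh was measured at 27408, 25004 and 24873 CPM in Control, 13640, 13888 and 14838 in NC_siRNA and 1783, 1787 and 1767 in Hif1a_siRNA, and has many near-identical pseudogenes, so the split of reads between it and its copies is uncertain; annotated pseudogenes took 4.75% of reads in Control, 3.16% in NC_siRNA and 1.67% in Hif1a_siRNA. Both genes were also lower in NC_siRNA than in Control (−0.78 and −0.87), as were Pgk1 (−0.62), Tpi1 (−0.68), Gpi1 (−0.65), Pkm (−0.72) and Aldoa (−0.69). Against NC_siRNA these 5 changed by −2.33, −2.18, −2.46, −1.72 and −1.34.

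Slc16a3, Pdk1 and Hk2 moved the other way with the negative control siRNA, as Slc2a1 did (0.43). Slc16a3, the lactate exporter MCT4, was measured at 147, 138 and 148.8 CPM in Control, 338, 341 and 333 in NC_siRNA and 17.3, 17.4 and 15.6 in Hif1a_siRNA. Pdk1, the kinase that shuts pyruvate dehydrogenase, was measured at 155, 173 and 172 CPM in Control, 279, 284 and 277 in NC_siRNA and 21.6, 20.97 and 22.2 in Hif1a_siRNA. Hk2, the inducible hexokinase, was measured at 232, 229 and 236 CPM in Control, 476, 462 and 429 in NC_siRNA and 75.2, 72.7 and 75.4 in Hif1a_siRNA. NC_siRNA lay highest and Hif1a_siRNA lowest for all 3, so that the change against NC_siRNA (−4.33, −3.70 and −2.61) was larger than that against Control (−3.14, −2.98 and −1.67). Over the list, 14 genes were lower and 4 higher in NC_siRNA than in Control, and 19 were lower and 1 higher in Hif1a_siRNA than in NC_siRNA. The exceptions were Slc2a3, the transporter GLUT3, and Pfkfb4, an isoenzyme that sets fructose 2,6-bisphosphate. Slc2a3 rose, from 4.04, 5.74 and 3.75 CPM in Control to 14.4, 15.01 and 14.6 in Hif1a_siRNA (1.68 ± 0.14 SE), and Pfkfb4 was not called (−0.11 ± 0.15 SE, adjusted p = 0.51). Its relative Pfkfb3 fell by 2.60.

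**Figure D1:**
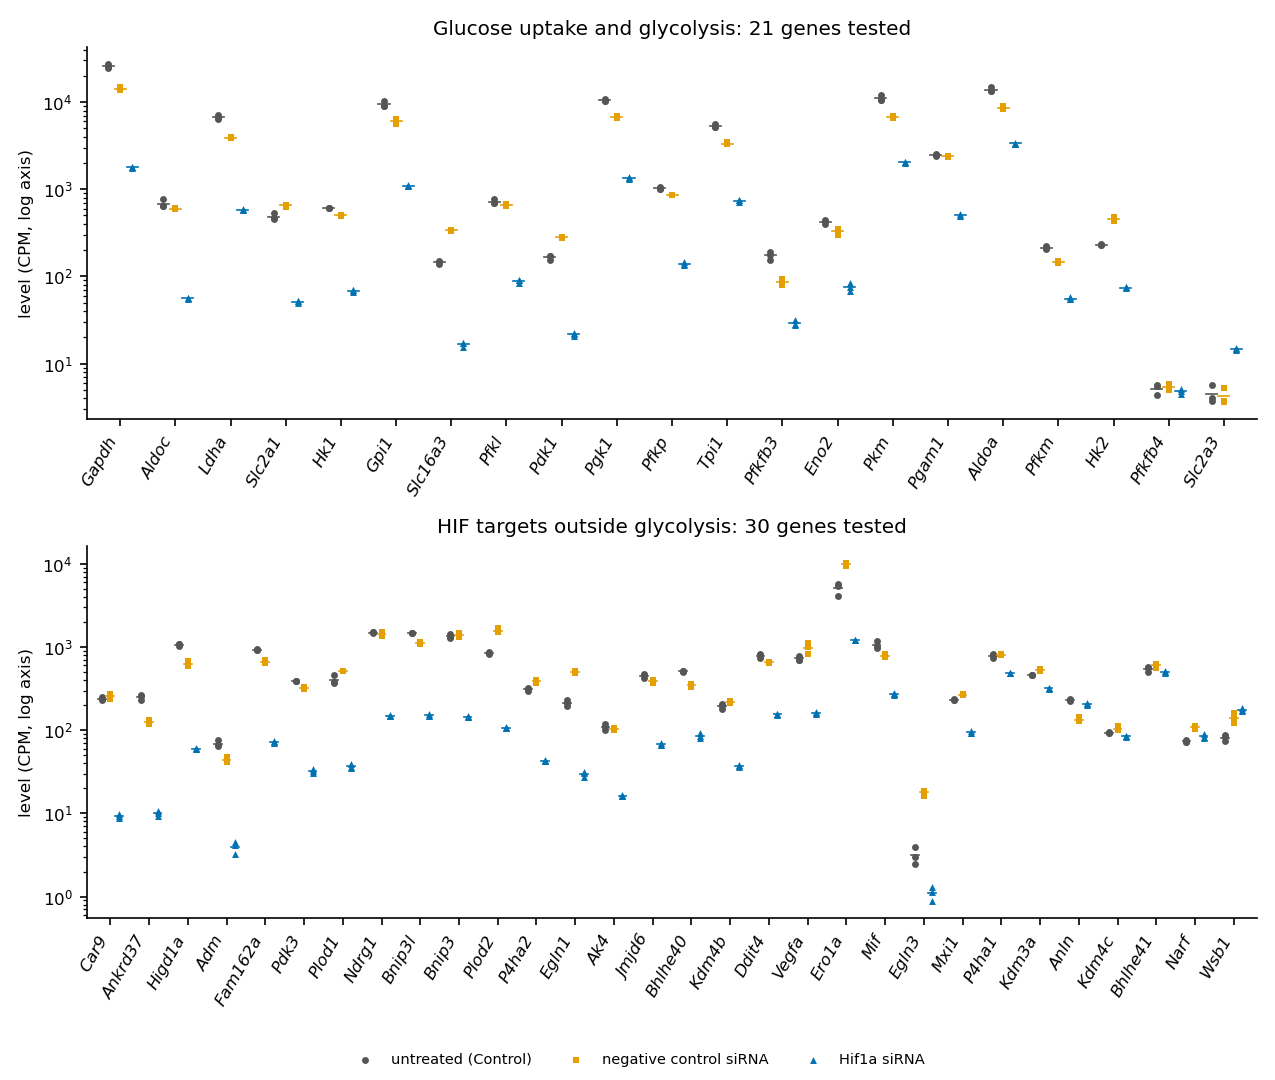
Level (CPM, log axis) of every tested gene of glucose uptake and glycolysis (upper panel, 21 genes) and of the HIF targets outside glycolysis (lower panel, 30 genes), ordered by log2 fold change against Control; points are the 3 libraries of a group and short lines their means. The Hif1a siRNA group is called lower than Control for 19 and 28 of these genes, and higher for Slc2a3, Wsb1 and Narf.

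Of 30 HIF targets outside glycolysis, 28 were lower and 2 higher, with a median of −2.67. Oxygen supply and vessel growth were represented by Vegfa, the main endothelial growth factor, measured at 696, 699.9 and 789 CPM in Control, 827, 1119.7 and 1008 in NC_siRNA and 156, 166 and 159.9 in Hif1a_siRNA. Adm, the vasodilator peptide adrenomedullin, was measured at 76.4, 64.97 and 65.8 CPM in Control, 41.4, 44.3 and 47.2 in NC_siRNA and 3.22, 4.15 and 4.54 in Hif1a_siRNA. Both were lowest in Hif1a_siRNA, with changes of −2.21 ± 0.06 SE and −4.14 ± 0.12 SE. Mitochondrial removal and mitochondrial pyruvate use were represented by Bnip3l (−3.32 ± 0.04 SE) and Pdk3 (−3.62 ± 0.06 SE). Ndrg1, a stress-induced gene of differentiation, was measured at 1515, 1501 and 1465 CPM in Control, 1374, 1464 and 1517 in NC_siRNA and 147, 149.8 and 153 in Hif1a_siRNA. It fell by 3.34, whereas NC_siRNA and Control did not differ detectably (−0.04 ± 0.04 SE). Ddit4, an inhibitor of the growth kinase mTORC1 (−2.35), Bhlhe40, a repressor in the clock (−2.59), Mxi1, a MYC antagonist (−1.34), and Mif, a cytokine (−1.99), fell as well. Ero1a, the oxidase that drives disulfide formation in the endoplasmic reticulum, was measured at 4101, 5737 and 5449.8 CPM in Control, 10264, 9794 and 9443 in NC_siRNA and 1202, 1199.5 and 1228 in Hif1a_siRNA. It fell against Control (−2.10 ± 0.10 SE) and by more against NC_siRNA (−3.02).

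The list was not uniform. The smallest decreases were in P4ha1 (−0.71), Kdm3a (−0.55), Anln (−0.19), Kdm4c (−0.17) and Bhlhe41 (−0.13). Kdm3a, a histone demethylase, was measured at 456, 464 and 463 CPM in Control and 315, 324 and 320 in Hif1a_siRNA, and P4ha1 at 733, 814 and 802 CPM in Control and 487, 483 and 493 in Hif1a_siRNA. Neither gene overlapped between these groups, whereas Bhlhe41 did, and its call was lost in the 9-library fit. The 2 genes that rose were Wsb1 (1.09 ± 0.06 SE), a ubiquitin ligase component, and Narf (0.18 ± 0.06 SE), a lamin-binding protein; NC_siRNA was also above Control for both (0.79 and 0.58). The call of Narf was lost when scaling used only protein-coding nuclear genes.

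Collagen and matrix genes were lower as well. Of 21 tested, 19 were lower and 0 higher, with a median of −0.84. Among the enzymes that modify collagen chains were P4hb, the shared subunit of the prolyl 4-hydroxylases (−3.25 ± 0.04 SE), P4ha2 (−2.88 ± 0.06 SE), and the lysyl hydroxylases Plod1 (−3.49 ± 0.09 SE) and Plod2 (−3.005 ± 0.05 SE), the last 3 also on the HIF target list. Loxl2, which crosslinks collagen outside the cell, was measured at 87.1, 90.2 and 83.5 CPM in Control, 134, 129 and 129 in NC_siRNA and 3.99, 3.90 and 4.33 in Hif1a_siRNA. It fell 21.7-fold, and was above Control with the negative control siRNA (0.59). Of the fibres themselves, fibronectin (Fn1, −1.78), Col5a1 (−2.24) and Sparc (−1.41) fell. Serpinh1, the collagen chaperone, was not called (0.05 ± 0.04 SE, adjusted p = 0.31), nor was Mmp2 (−0.13 ± 0.27 SE). NC_siRNA against Control had 12 of these genes higher and 3 lower, and Hif1a_siRNA against NC_siRNA had 2 higher and 18 lower.

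Oxygen-dependent demethylases of histones and DNA split against Control, with 11 of 17 lower, 5 higher and a median of −0.34. In NC_siRNA 13 were higher and 1 lower than in Control (median 0.39). Against NC_siRNA 13 were lower in Hif1a_siRNA and 2 higher (median −0.84). Tet1, which oxidises methylcytosine, was measured at 44.5, 41.2 and 37.7 CPM in Control, 44.4, 38.9 and 43.6 in NC_siRNA and 3.03, 3.33 and 4.06 in Hif1a_siRNA. It fell (−3.59 ± 0.12 SE), beside Tet2 (−1.25), Jmjd6 (−2.76), Kdm4b (−2.41) and Kdm2a (−1.10). The 5 that rose against Control were Kdm7a (1.36), Kdm6a (0.97), Kdm3b (0.86), Tet3 (0.39) and Kdm4a (0.25). Kdm6a and Kdm3b were also higher in NC_siRNA (1.08 and 0.72) and were not called between the siRNAs (−0.08 ± 0.06 SE and 0.17 ± 0.08 SE).

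Genes were ranked where their higher group averaged 5 CPM or more and its libraries did not overlap the other group's. The 12 largest decreases were Ltbp1, Proser2, Selenbp1, Selenbp2, Mgarp, Fosb, Stc1, Tph1, Tnfrsf9, Car9, Atp7b and Ankrd37. Ltbp1, which holds latent TGF-β in the matrix, was measured at 6.35, 6.64 and 7.19 CPM in Control and had 2, 3 and 2 reads in the Hif1a_siRNA libraries. The ratio of summed reads was 96.5, with an exact 95% counting interval of 46.5 to 241, and the fitted change was −6.50 ± 0.27 SE. Selenbp1, a selenium-binding methanethiol oxidase, was measured at 1543, 1352 and 1353 CPM in Control, 1007, 1067 and 1032 in NC_siRNA and 27.1, 29.5 and 29.4 in Hif1a_siRNA. It fell 50.3-fold (−5.65 ± 0.07 SE), and Selenbp2 is a close copy with which reads may have been shared (−5.61). Mgarp, a mitochondrial protein of the hypoxia response, was measured at 192, 209.9 and 190 CPM in Control, 113, 116 and 124 in NC_siRNA and 4.15, 4.11 and 5.05 in Hif1a_siRNA, a change of −5.50 ± 0.09 SE. Stc1, the calcium-regulating hormone stanniocalcin 1, was measured at 21.8, 21.3 and 21.6 CPM in Control, 20.2, 20.1 and 18.05 in NC_siRNA and 0.433, 0.726 and 1.02 in Hif1a_siRNA. It fell (−4.90 ± 0.18 SE) and did not differ detectably between NC_siRNA and Control (−0.15 ± 0.11 SE). The others included Tph1, the rate-limiting enzyme of serotonin synthesis outside the brain (−4.86), Atp7b, a copper exporter (−4.71), and Proser2 (−5.83).

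The 12 largest increases were smaller and started from low levels. Ifit1, an interferon-induced RNA-binding protein, rose from 0.444, 0.407 and 0.353 CPM to 9.81, 10.2 and 8.24 and is not listed for NC_siRNA. Every gene listed for an siRNA group had at least 10 reads in 3 or more libraries of that group and Control. Ifit1, scarce in Control, may therefore be listed only through its Hif1a_siRNA level, and its absence for NC_siRNA gives no level there. Cxcl10, a chemokine that attracts T cells, was measured at 4.40, 6.05 and 5.95 CPM in Control, 3.71, 3.82 and 4.53 in NC_siRNA and 86.7, 90.2 and 86.4 in Hif1a_siRNA. Both were without overlap, with changes of 4.51 ± 0.21 SE and 3.98 ± 0.10 SE, a 15.8-fold rise of Cxcl10. Cdca7, a cell-cycle gene linked to DNA methylation, was measured at 1.87, 1.49 and 1.85 CPM in Control, 1.60, 2.25 and 1.82 in NC_siRNA and 29.03, 26.3 and 26.7 in Hif1a_siRNA, a change of 3.95 ± 0.12 SE. Pprc1, a coactivator for mitochondrial biogenesis, was measured at 3.86, 4.74 and 4.41 CPM in Control, 11.7, 14.3 and 12.5 in NC_siRNA and 50.9, 54.7 and 53.8 in Hif1a_siRNA. For Pprc1 the negative control siRNA stood between Control and Hif1a_siRNA (1.57 and 2.05). The same order held for Cmtr2, an RNA cap methyltransferase (3.90 against Control, 2.09 against NC_siRNA), Gemin4, a component of the SMN complex (3.36 and 2.14), Pigw (3.05 and 0.97), Zfp719 (3.33 and 1.58) and Gfod1 (3.16 and 1.47). Fpgs, which retains folates in cells, rose by 3.04 and Lrr1, a part of the ligase that unloads the replicative helicase, by 3.49, and neither was called between NC_siRNA and Control (0.25 ± 0.28 SE and −0.73 ± 0.50 SE). Ifit3 (3.46) completes the 12.

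**Figure D2:**
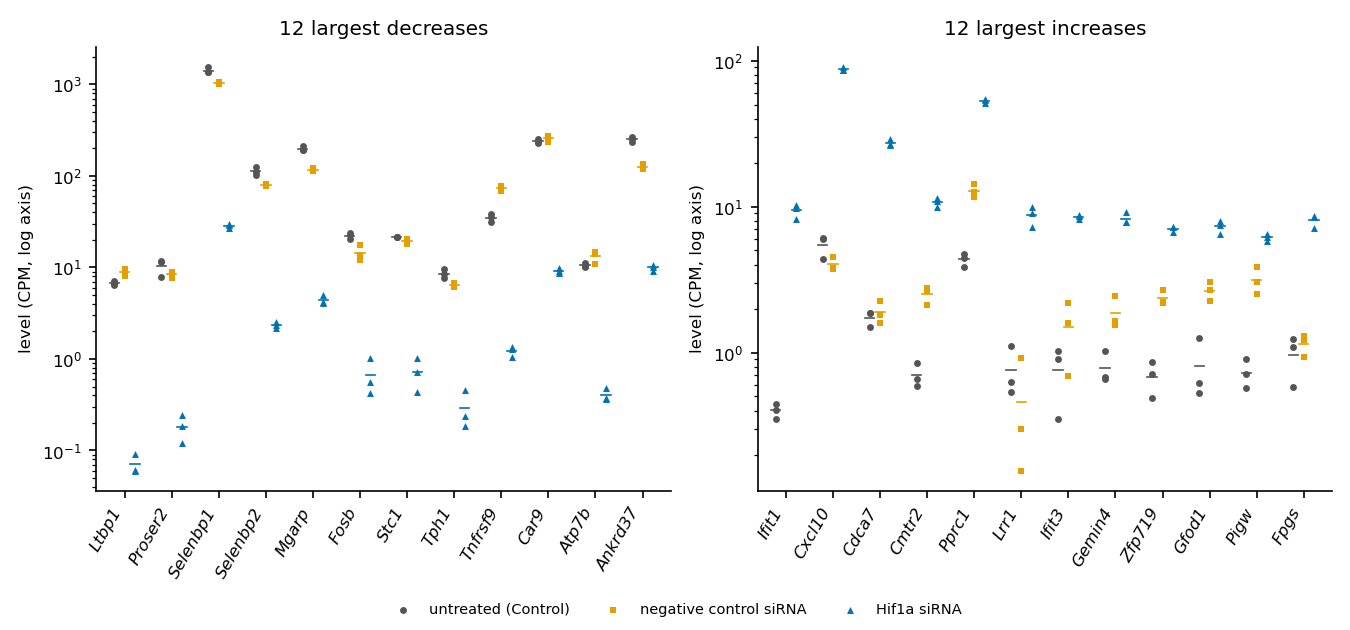
Level (CPM, log axis) of the 12 largest decreases (left) and 12 largest increases (right) in each library of the 3 groups, with short lines for the group means. The Hif1a siRNA libraries do not overlap Control for any of the 24 genes because the choice required it, and the negative control libraries lie closer to Control than to the Hif1a siRNA for all 12 decreases but between the groups for genes such as Pprc1, Cmtr2 and Pigw. No points are drawn for Ifit1 in the negative control group, whose table does not list it.

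Some large changes against Control were equal in size with the negative control siRNA. Among genes whose change against NC_siRNA had a 95% interval within ±0.3, the 6 with the largest change were Med13l, E2f6, Fam222b, Usp42, Spen and Larp4b. Med13l, a subunit of the Mediator kinase module, was measured at 8.93, 11.9 and 14.2 CPM in Control, 56.98, 52.7 and 46.9 in NC_siRNA and 51.04, 51.6 and 56.6 in Hif1a_siRNA. Both siRNA groups lay above Control and overlapped each other, with a change of 2.16 against Control and 0.02 ± 0.11 SE between them. E2f6, a repressor of cell-cycle genes, was measured at 6.00, 4.65 and 5.20 CPM in Control, 21.99, 22.5 and 19.6 in NC_siRNA and 20.2, 24.3 and 23.3 in Hif1a_siRNA, changes of 2.07 and 0.08. The other 4 rose by 1.99 (Fam222b), 1.77 (Usp42, a deubiquitinase), 1.76 (Spen, a transcriptional repressor) and 1.72 (Larp4b, an RNA-binding protein). These 6 were selected for this pattern, so their agreement between the siRNA groups is a description.

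Other genes moved in opposite directions with the siRNAs, again by selection. Among genes called against Control in opposite directions, each by at least 0.5 on the log2 scale, the 6 with the largest difference between the siRNAs were Tnfrsf9, Gipr, Loxl2, Epm2a, Unc13a and Slc16a3. Tnfrsf9, the costimulatory receptor 4-1BB, was measured at 37.98, 31.04 and 35.6 CPM in Control, 68.98, 76.5 and 78.04 in NC_siRNA and 1.05, 1.27 and 1.35 in Hif1a_siRNA. Its log2 fold change against Control was 1.09 in NC_siRNA and −4.85 in Hif1a_siRNA. Gipr, the receptor of the gut hormone GIP, was measured at 12.2, 12.7 and 14.1 CPM in Control, 29.9, 41.9 and 36.9 in NC_siRNA and 0.959, 0.938 and 1.08 in Hif1a_siRNA, changes of 1.48 and −3.73. Epm2a, the glycogen phosphatase laforin, was measured at 34.5, 52.3 and 53.8 CPM in Control, 115, 117 and 119.6 in NC_siRNA and 3.90, 4.63 and 3.13 in Hif1a_siRNA, changes of 1.32 and −3.62.

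Ribosomal protein and respiratory chain genes fell against Control in both siRNA groups. All 49 tested cytosolic ribosomal protein genes were lower after the Hif1a siRNA (median −0.85) and all 49 were lower in NC_siRNA (median −0.87). Between the siRNA groups 17 were higher, 15 lower and the median was 0.03. Rps4x, for example, averaged 2019 ± 68.6 CPM in Control, 1100.4 ± 51.98 in NC_siRNA and 931 ± 22.7 in Hif1a_siRNA. Of the nuclear-encoded respiratory chain, 33 of 33 genes were lower (median −0.85), and 32 were lower in NC_siRNA (median −0.68). Between the siRNA groups 10 of these were higher in Hif1a_siRNA, 17 lower and 6 not called, with a median of −0.11. Cox6b1 and Cox7b, small subunits of cytochrome c oxidase, changed by −1.496 and −1.40 against Control and by −0.96 and −1.02 against NC_siRNA, while Cox6c fell by 1.12 against Control and was not called against NC_siRNA (0.04 ± 0.06 SE). The 15 mitochondrially encoded genes had no common direction, with 5 higher, 6 lower and a median of −0.03. The summed share of reads of all listed genes of the mitochondrial genome averaged 1.43% in Control, 1.89% in NC_siRNA and 1.91% in Hif1a_siRNA.

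Genes of the small RNA machinery rose with both siRNAs. After the Hif1a siRNA 9 of 12 were higher, 1 was lower and the median was 0.64, beside 8 higher, 2 lower and a median of 0.80 in NC_siRNA. Dicer1, the nuclease that cuts microRNA precursors, was measured at 13.5, 16.3 and 23.3 CPM in Control, 55.2, 69.4 and 62.9 in NC_siRNA and 57.6, 66.3 and 64.2 in Hif1a_siRNA. It rose by 1.80 and did not differ detectably between the siRNA groups (0.00 ± 0.15 SE). Dgcr8, the partner of Drosha, rose by 2.18, and Tnrc6a and Ago1, of the silencing complex, by 1.13 and 0.53, less than the 1.82 and 1.504 of NC_siRNA (called between the siRNAs at −0.67 and −0.95). Prkra fell by 0.55 and Ago2 was not called (−0.03 ± 0.05 SE; called lower, at −0.087, without Control replicate 1).

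**Figure D3:**
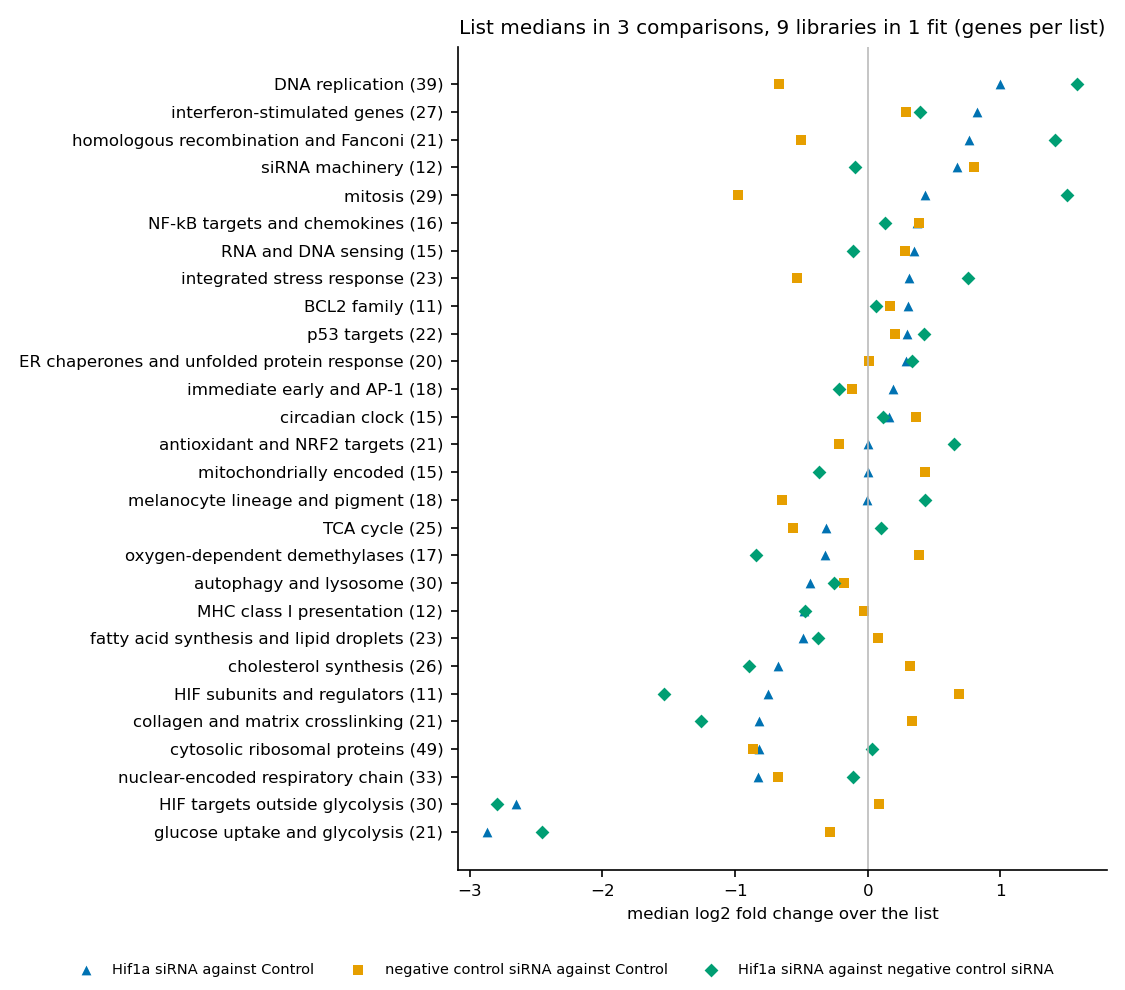
Median log2 fold change of each of the 28 gene lists in 3 comparisons from the same 9-library fit, with the number of genes in parentheses. Both HIF target lists lie below −2 for the Hif1a siRNA against either other group. For the negative control siRNA against Control, glycolysis genes lie at −0.28 and the other HIF targets at 0.09. Ribosomal protein genes lie near −0.8 against Control for both siRNAs and near 0 between them. Replication and mitosis genes lie on opposite sides of 0 for the 2 siRNAs.

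Changes against Control moved with transcript length in both siRNA groups. A transcript length was available for 10714 of 11160 protein-coding genes of the 9-library fit, and these were cut by length into 5 groups of like size. For Hif1a_siRNA against Control the median log2 fold change ran from −0.41 in the shortest group (median length 1339 bases) through 0.01, 0.20 and 0.32 to 0.43 in the longest (6840 bases). For NC_siRNA against Control it ran from −0.37 through −0.06, 0.13 and 0.33 to 0.44. Between the siRNA groups it stayed between −0.03 and 0.04. Ribosomal protein and respiratory chain genes are short (medians 946 and 934 bases), and without them the shortest group had a median of −0.36. The part of transcript length in the results on those lists was not tested. Glycolysis genes (2884 bases), the other HIF targets (3113 bases) and replication genes (3006 bases) have lengths near those of the middle group. The part of transcript length in the results on these lists was not tested either. Nor was it tested for the small RNA machinery or for the 6 genes of like change with both siRNAs. Those 6 have transcripts of 9296 (Med13l), 2418 (E2f6), 3358 (Fam222b), 5151 (Usp42), 12299 (Spen) and 5720 bases (Larp4b).

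**Figure D4:**
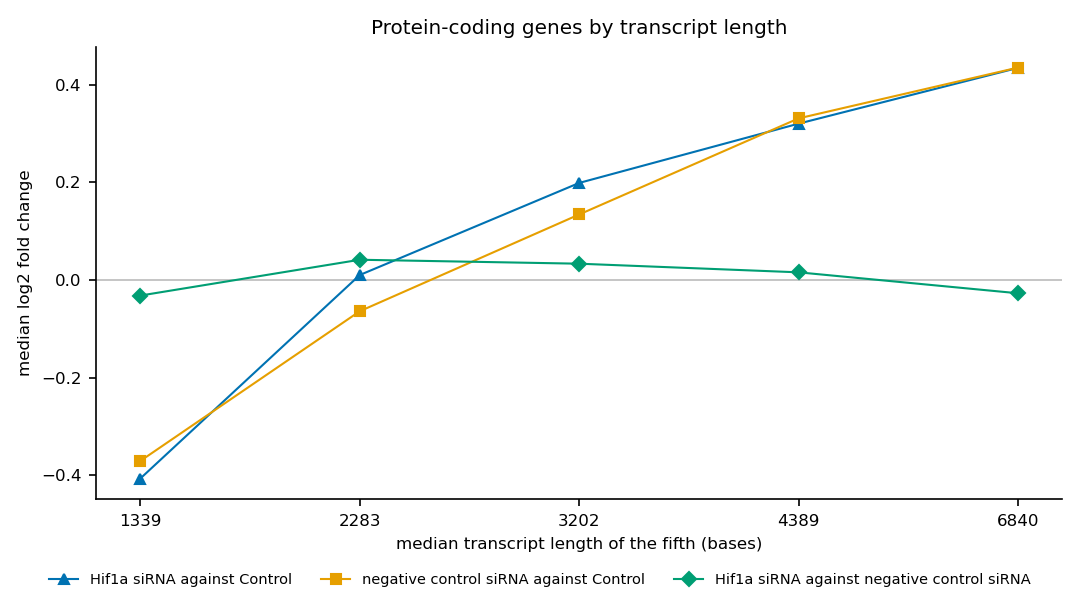
Median log2 fold change of protein-coding genes (vertical axis) in 5 groups by transcript length, labelled by the median length of each group in bases (horizontal axis), in 3 comparisons. Both siRNAs against Control rise from about −0.4 to 0.4 from the shortest to the longest group, and the siRNAs against each other stay within 0.05 of 0.

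DNA replication genes were higher after the Hif1a siRNA and lower after the negative control. Of 39 tested genes 37 were higher and 2 lower, with a median of 0.97, while in NC_siRNA 29 were lower and 4 higher than in Control, with a median of −0.67. Between the siRNA groups 37 were higher in Hif1a_siRNA and 1 lower (median 1.58). The motif of E2F factors, which drive these genes at entry to S phase, was searched on both strands as TTTGGCGC, TTTCCCGC, TTTGCCGC and TTTCGCGC, of which overlapping copies can share letters. It stood in 4.95% of tested genes with a promoter entry and in 13 of 31 replication genes (41.9%). Windows are shown for 3 genes that rose, with matches or their complements in capitals.
Cdc6 (chr11:98907941-98908090, plus strand): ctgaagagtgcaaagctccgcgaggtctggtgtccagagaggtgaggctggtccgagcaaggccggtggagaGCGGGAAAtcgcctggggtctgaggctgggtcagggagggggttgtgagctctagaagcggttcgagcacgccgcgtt
Mcm6 (chr1:128359706-128359855, minus strand): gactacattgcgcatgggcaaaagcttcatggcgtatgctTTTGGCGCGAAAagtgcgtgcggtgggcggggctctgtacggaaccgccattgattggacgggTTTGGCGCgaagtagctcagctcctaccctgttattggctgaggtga
Cdca7 (chr2:72476069-72476218, plus strand): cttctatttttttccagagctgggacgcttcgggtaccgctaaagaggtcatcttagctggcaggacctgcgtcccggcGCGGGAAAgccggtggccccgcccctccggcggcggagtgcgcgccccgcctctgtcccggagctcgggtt
Cdc6 and Mcm6, a helicase subunit that rose by 1.24, belong to the list, and Cdca7 is among the largest increases. In Mcm6 a pair of matches on opposite strands shares letters.

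Cdc6 and the 7 tested Mcm genes were each called higher in Hif1a_siRNA and lower in NC_siRNA, against Control. Cdc6, which loads the helicase on origins, was measured at 2.58, 2.35 and 1.94 CPM in Control, 1.11, 0.917 and 1.39 in NC_siRNA and 12.4, 10.8 and 11.9 in Hif1a_siRNA. Mcm3, a subunit of that helicase, was measured at 42.2, 42.5 and 44.98 CPM in Control, 23.7, 29.1 and 30.9 in NC_siRNA and 117, 119 and 117 in Hif1a_siRNA. Mcm10, which helps to activate it, was measured at 8.75, 8.76 and 7.89 CPM in Control, 4.68, 4.51 and 5.93 in NC_siRNA and 31.4, 32.7 and 32.4 in Hif1a_siRNA. Hif1a_siRNA was highest and NC_siRNA lowest for each, without overlap, with changes against Control of 2.32 ± 0.14 SE, 1.42 ± 0.06 SE and 1.90 ± 0.08 SE. The other tested Mcm genes rose too, from 0.29 (Mcm7) to 1.62 (Mcm4). Nucleotide supply included Rrm2, the S-phase subunit of ribonucleotide reductase, measured at 47.4, 51.1 and 54.3 CPM in Control, 39.8, 33.9 and 42.1 in NC_siRNA and 188, 171 and 179 in Hif1a_siRNA and changed by 1.79 ± 0.06 SE. At the fork, Pole (DNA polymerase ε) rose by 1.63, Fen1 by 1.73 and Pcna by 0.70. The 2 genes that fell were Rfc2 (−0.50 ± 0.06 SE), a clamp loader subunit, and E2f1 (−0.58 ± 0.07 SE), itself an E2F factor.

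Mitosis genes were lower throughout in NC_siRNA, with 29 of 29 called and a median of −0.97. After the Hif1a siRNA 18 of the 29 were higher than in Control, 7 lower and the median was 0.41, and against NC_siRNA 28 were higher (median 1.501). Kif11, a spindle motor, was measured at 85.9, 84.3 and 89.2 CPM in Control, 47.2, 50.9 and 52.4 in NC_siRNA and 161, 162 and 159 in Hif1a_siRNA. Mki67, the proliferation antigen Ki-67, was measured at 447, 467 and 459.9 CPM in Control, 179.6, 172 and 185 in NC_siRNA and 513, 532 and 474 in Hif1a_siRNA. Bub1, a checkpoint kinase, was measured at 181, 182 and 197 CPM in Control, 31.4, 32.5 and 35.2 in NC_siRNA and 142, 135 and 137 in Hif1a_siRNA. NC_siRNA lay well below both other groups for all 3. Against Control, Kif11 rose by 0.87, Bub1 fell by 0.46, and Mki67 changed by 0.12, a call lost with RLE or upper-quartile factors and with DESeq2. The other 6 that fell were Cdc25b (−1.19), Ccnb2 (−0.58), Cdk1 (−0.34), Top2a (−0.31), Bub3 (−0.29) and Aurkb (−0.21, lost in the 15-library fit). Cdc25b, a phosphatase that activates the mitotic kinase, was the member lower than in NC_siRNA as well (−0.38).

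**Figure D5:**
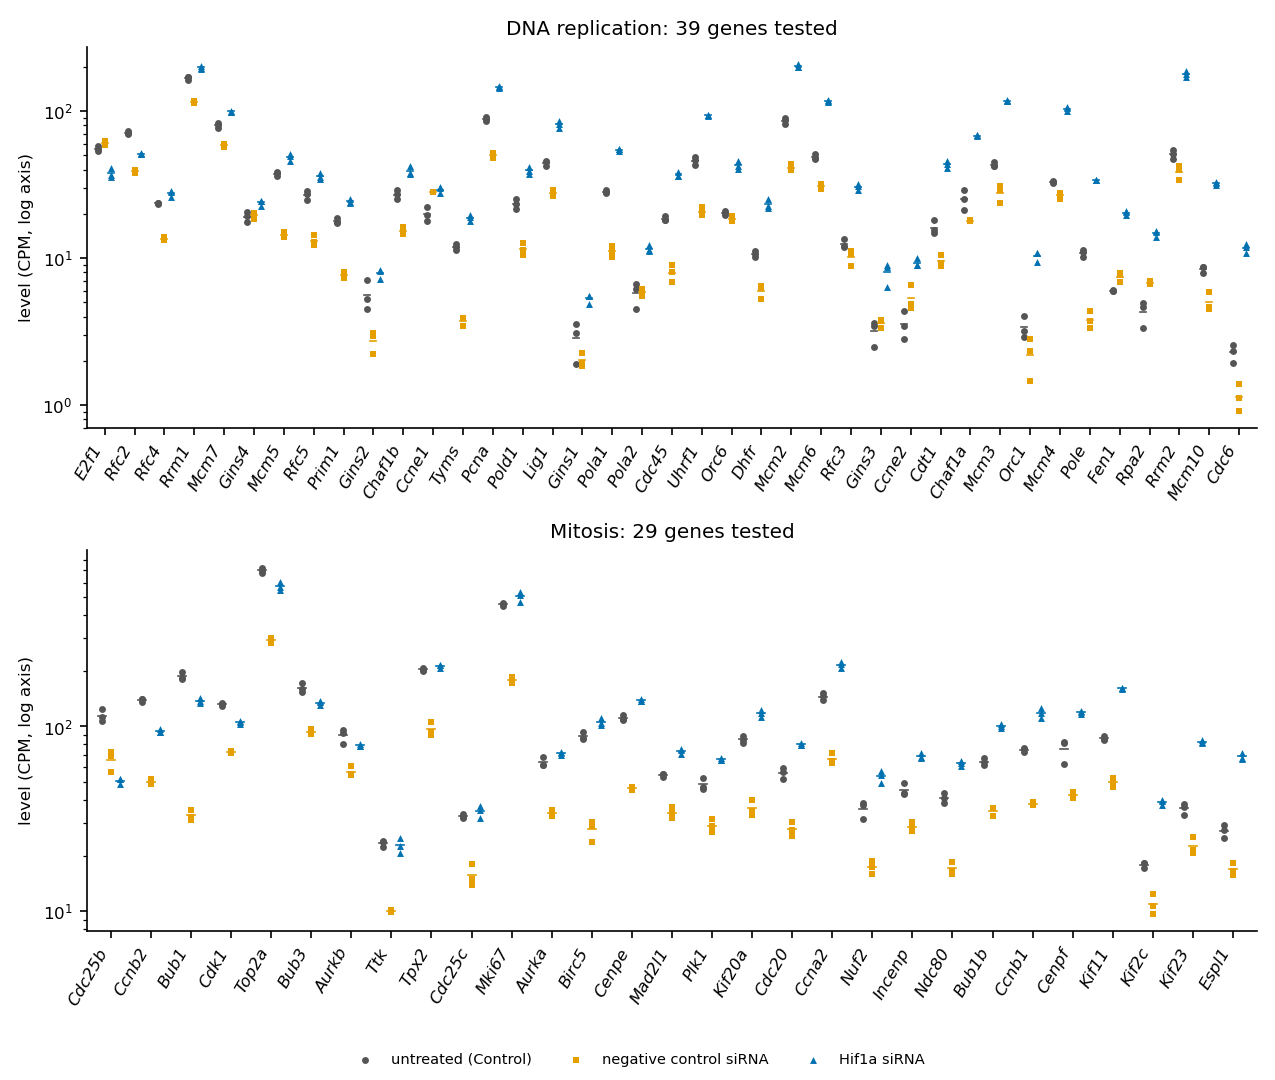
Level (CPM, log axis) of all tested DNA replication genes (upper panel, 39 genes) and mitosis genes (lower panel, 29 genes), ordered by log2 fold change against Control, with the 3 libraries of each group as points and short lines for their means. The Hif1a siRNA libraries average above Control for 37 replication genes, and the negative control libraries lie below both other groups for most genes of both panels.

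Genes of homologous recombination and the Fanconi pathway, which repair broken and crosslinked DNA, had 16 of 21 higher, 1 lower and a median of 0.74. Exo1, the exonuclease of end resection, was measured at 1.64, 1.31 and 2.25 CPM in Control, 1.19, 2.18 and 1.28 in NC_siRNA and 10.6, 10.8 and 11.5 in Hif1a_siRNA. It was highest in Hif1a_siRNA, without overlap, a change of 2.63 ± 0.17 SE. Brip1 (1.85), Bard1 (1.65) and Brca2 (1.33) also rose. Blm, a helicase of the same pathway, fell by 0.69. The list had 13 genes lower and 5 higher in NC_siRNA than in Control.

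Interferon-stimulated genes rose in part. Of 29 tested, 18 were higher and 2 lower, with a median of 0.82, and 10 of the 39 genes of the list are not listed in both groups. Members scarce in Control could be listed only if their reads in Hif1a_siRNA were high enough, which favours members that rose. In the 9-library fit, 12 of 27 were higher and 5 lower in NC_siRNA than in Control, and 12 were higher and 7 lower in Hif1a_siRNA than in NC_siRNA. The interferon-stimulated response element, searched as GAAA, any 2 bases and GAAA on both strands, stood in 3.35% of tested genes with a promoter entry and in 13 of 24 genes of the list (54.2%). Windows are shown for the 2 genes with the largest rise, with matches or their complements in capitals.
Ifit1 (chr19:34640732-34640881, plus strand): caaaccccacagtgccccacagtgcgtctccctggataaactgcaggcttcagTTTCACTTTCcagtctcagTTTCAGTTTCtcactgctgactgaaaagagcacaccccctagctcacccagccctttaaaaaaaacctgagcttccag
Cxcl10 (chr5:92348990-92349139, minus strand): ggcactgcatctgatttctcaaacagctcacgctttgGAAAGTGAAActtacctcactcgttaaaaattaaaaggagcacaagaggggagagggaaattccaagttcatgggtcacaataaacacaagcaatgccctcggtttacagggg
The Ifit1 window holds 2 copies close together before the start, and Cxcl10 a single copy further upstream.

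Which interferon genes rose differed between the siRNAs. Ifit2, an RNA-binding antiviral protein, was measured at 11.2, 9.49 and 10.5 CPM in Control, 31.2, 29.2 and 28.6 in NC_siRNA and 49.3, 52.4 and 46.6 in Hif1a_siRNA. Isg15, a ubiquitin-like modifier, was measured at 0.844, 1.72 and 1.68 CPM in Control, 2.19, 2.29 and 1.59 in NC_siRNA and 7.95, 7.56 and 6.83 in Hif1a_siRNA. Mx2, an antiviral GTPase, was measured at 2.04, 1.94 and 1.10 CPM in Control, 1.49, 1.30 and 1.59 in NC_siRNA and 8.08, 6.87 and 5.93 in Hif1a_siRNA. Ifit2 was raised by NC_siRNA (1.51) and further by the Hif1a siRNA (0.74), whereas for Isg15 and Mx2 NC_siRNA was not called against Control and the Hif1a siRNA stood higher by 1.88 and 2.25. Other members were higher with both siRNAs and not called between them, among them Irf9 (2.12 against Control, 0.31 ± 0.17 SE between siRNAs), Stat2 (0.79 and −0.16 ± 0.10 SE) and Adar (0.76 and 0.15 ± 0.07 SE). Gbp2 showed the reverse, at 1.11, 0.813 and 0.706 CPM in Control, 7.54, 6.99 and 6.43 in NC_siRNA and 1.02, 0.998 and 0.902 in Hif1a_siRNA, and was called against Control in NC_siRNA only (2.99), with a tested difference between the siRNAs of −2.84 ± 0.19 SE. The 2 genes that fell were Isg20, an RNA exonuclease (−3.81 ± 0.10 SE), and the transcription factor Irf1 (−0.76 ± 0.12 SE). Several members have low levels, and Ifit3 and Ifit3b, or Oas1a and Oas1g, are close copies among which reads may have been split.

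Sensors of foreign nucleic acid had 8 of 15 higher and 4 lower (median 0.33, or 0.66 without Control replicate 3). In NC_siRNA 8 were higher and 0 lower (median 0.28), and between the siRNAs 5 were higher and 6 lower (median −0.11). Cgas, the sensor of cytosolic DNA, was measured at 1.47, 2.35 and 1.68 CPM in Control, 2.86, 2.60 and 2.98 in NC_siRNA and 6.84, 7.504 and 6.77 in Hif1a_siRNA, a change of 1.92 ± 0.18 SE, and Ifih1, a sensor of double-stranded RNA, rose by 1.48. Of the 30 NF-κB targets and chemokines on the list, 16 were tested. Of these, 8 were higher (50%) and 5 lower (31.25%), beside 39.5% and 37.6% of all genes (median 0.35). In NC_siRNA 8 were higher and 4 lower (median 0.39). As for the interferon genes, members scarce in Control could be listed only through high reads in Hif1a_siRNA, which favours members that rose. Ccl5, a chemokine, was measured at 2.67, 2.21 and 2.03 CPM in Control, 2.41, 3.44 and 3.18 in NC_siRNA and 12.4, 11.4 and 11.1 in Hif1a_siRNA, a change of 2.31 ± 0.14 SE, and Relb, an NF-κB subunit, rose by 1.51. The feedback inhibitors Nfkbia (−1.07) and Tnfaip3 (−1.67) fell.

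MHC class I presentation had 7 of 12 genes lower and 0 higher, with a median of −0.50. H2-K1, a classical class I heavy chain, was measured at 350.2, 314 and 329 CPM in Control, 326, 358 and 364 in NC_siRNA and 39.6, 41.8 and 39.6 in Hif1a_siRNA. H2-T23, the non-classical molecule Qa-1, was measured at 19.4, 13.9 and 15.4 CPM in Control, 20.7, 23.8 and 21.03 in NC_siRNA and 0.990, 0.756 and 0.692 in Hif1a_siRNA. In both the Hif1a_siRNA libraries lay far below the rest (−3.06 ± 0.06 SE and −4.34 ± 0.19 SE), while H2-K1 did not differ detectably between NC_siRNA and Control (0.08 ± 0.06 SE). H2-D1 (−0.77) and B2m, the shared light chain (−0.55), fell less steeply. Class I genes are similar in sequence, so reads may have been split among them. Tap1 and Tap2, the peptide transporter, were not called (0.46 ± 0.28 SE and 0.03 ± 0.27 SE).

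Stress pathways were mixed. The integrated stress response had 16 of 23 genes higher and 7 lower (median 0.28), beside 6 higher and 16 lower in NC_siRNA (median −0.53). Slc7a11, the cystine importer, was measured at 33.8, 43.4 and 36.4 CPM in Control, 23.1, 25.4 and 21.8 in NC_siRNA and 140.1, 147 and 134 in Hif1a_siRNA, a change of 1.86 ± 0.08 SE. Atf3, a stress transcription factor, rose by 1.14. The pathway's central factor Atf4 (−0.47) and Ddit3, which encodes CHOP (−0.43), fell, and neither was called between the siRNAs (0.08 ± 0.05 SE and 0.06 ± 0.05 SE). Chaperones and regulators of the unfolded protein response had 12 of 20 higher and 3 lower (median 0.26). Dnajb9 and Dnajc3, co-chaperones, rose by 1.37 and 1.39, and Hsp90b1, an abundant chaperone, fell by 0.90. Hspa5, the chaperone BiP, was not called against Control (0.24 ± 0.11 SE) and was 1.37 higher than in NC_siRNA on the log2 scale. It was called higher with DESeq2 (0.22), with a replicate block (0.26) and without Control replicate 2 (0.39), and was at 0.11 without Control replicate 1.

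Antioxidant and NRF2 target genes had 9 of 21 higher (42.9%), 8 lower (38.1%) and a median of −0.02. These shares are near those of all genes (39.5% and 37.6%), so the list as a whole showed nothing particular. G6pdx, the entry enzyme of the pentose phosphate pathway, was measured at 174, 180.3 and 163 CPM in Control, 148, 143 and 143 in NC_siRNA and 15.3, 15.3 and 15.6 in Hif1a_siRNA. Hmox1, which breaks down heme, was measured at 770.3, 822 and 763 CPM in Control, 682, 728 and 719.8 in NC_siRNA and 165, 163 and 158 in Hif1a_siRNA. Txnrd1, thioredoxin reductase, was measured at 109.6, 143 and 122 CPM in Control, 189, 179 and 164 in NC_siRNA and 475, 461 and 459 in Hif1a_siRNA. G6pdx and Hmox1 fell without overlap (−3.51 ± 0.06 SE and −2.30 ± 0.04 SE), while Txnrd1 rose (1.87 ± 0.08 SE). Nfe2l2, which encodes NRF2, rose by 1.16, Gclm, for glutathione synthesis, by 1.55, and Nqo1 by 1.03.

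Lipid genes were lower in part. Cholesterol synthesis had 16 of 26 genes lower (61.5%) and 5 higher (19.2%), beside 37.6% and 39.5% of all genes. The median was −0.70, and in NC_siRNA 15 were higher and 5 lower than in Control (median 0.32). Against NC_siRNA 23 were lower and 1 higher. Nsdhl and Lss, enzymes after squalene, fell (−1.77 and −1.75). Those that rose against Control included the early enzymes Hmgcs1 (1.13) and Idi1 (0.99), with Msmo1 (0.39) and the regulator Srebf2 (0.15, lost with RLE factors). Hmgcs1 was measured at 66.7, 83.6 and 82.8 CPM in Control, 361, 295 and 288 in NC_siRNA and 174, 168 and 176 in Hif1a_siRNA, so that NC_siRNA was the highest group. Fatty acid synthesis and lipid droplet genes were mixed, with 12 of 23 lower (52.2%) and 8 higher (34.8%), and a median of −0.51. In NC_siRNA 8 of them were higher and 5 lower than in Control (median 0.08). Hilpda, a hypoxia-induced inhibitor of lipolysis, was measured at 50.02, 43.6 and 50.1 CPM in Control, 44.1, 54.9 and 49.2 in NC_siRNA and 2.32, 2.72 and 2.38 in Hif1a_siRNA, a change of −4.30 ± 0.11 SE, and the desaturase Scd1 fell by 2.01. Fasn, the fatty acid synthase, was not called (−0.06 ± 0.06 SE).

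The tricarboxylic acid cycle had 17 of 25 genes lower and 3 higher (median −0.34), and in NC_siRNA 23 were lower and 2 higher (median −0.57). Pcx, which makes oxaloacetate from pyruvate, was measured at 40.02, 38.2 and 43.4 CPM in Control, 18.4, 19.9 and 18.5 in NC_siRNA and 8.60, 9.11 and 9.57 in Hif1a_siRNA, a change of −2.18 ± 0.09 SE. Mdh2 fell by 1.04 and was not called between the siRNAs (0.10 ± 0.05 SE). Autophagy and lysosome genes had 21 of 30 lower and 8 higher (median −0.46). In NC_siRNA 16 of them were lower and 6 higher than in Control (median −0.18). Between the siRNAs 18 were lower in Hif1a_siRNA and 6 higher (median −0.26). The protease Ctsa led the decreases against Control (−2.35 ± 0.04 SE), and the receptor Sqstm1 rose by 0.68.

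Among p53 targets 14 of 22 were higher and 3 lower (median 0.27), beside 12 higher and 6 lower in NC_siRNA (median 0.20). Cdkn1a, the cell-cycle inhibitor p21, was measured at 585, 601 and 572 CPM in Control, 644, 683 and 649 in NC_siRNA and 176, 171 and 177 in Hif1a_siRNA. It fell by 1.77, together with Bax (−0.74) and Ak1 (−0.60), while Aen, a nuclease, rose by 2.08 and Mdm2, the ligase that degrades p53, by 1.27. In the BCL2 family 6 of 11 were higher (54.5%) and 4 lower (36.4%), beside 39.5% and 37.6% of all genes. The median was 0.27, and in NC_siRNA 5 were higher and 3 lower than in Control. Between the siRNAs 3 were higher in Hif1a_siRNA and 4 lower (median 0.06). Bid, which links death receptors to mitochondria, was measured at 3.07, 3.03 and 2.56 CPM in Control, 5.94, 8.18 and 5.54 in NC_siRNA and 16.1, 17.5 and 16.2 in Hif1a_siRNA, a change of 2.50 ± 0.12 SE. Mcl1, a survival protein, rose by 1.64 and was not called between the siRNAs (0.17 ± 0.09 SE).

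Immediate early genes had 9 of 18 higher (50%) and 8 lower (44.4%), beside 39.5% and 37.6% of all genes. Their median was 0.17, and 0.081 without Control replicate 1. In NC_siRNA 7 were higher and 8 lower. Fos, an AP-1 transcription factor, was measured at 59.6, 48.3 and 47.9 CPM in Control, 24.7, 22.3 and 32.3 in NC_siRNA and 3.40, 3.18 and 2.95 in Hif1a_siRNA. Its relative Fosb was measured at 23.6, 20.6 and 22.6 CPM in Control, 11.96, 13.5 and 17.8 in NC_siRNA and 0.557, 1.03 and 0.421 in Hif1a_siRNA. Ier3, a survival gene of the early response, was measured at 861, 756 and 782 CPM in Control, 488, 547 and 506 in NC_siRNA and 56.95, 58.8 and 60.6 in Hif1a_siRNA. All 3 were lowest in Hif1a_siRNA, with changes of −4.06 ± 0.12 SE, −5.07 ± 0.20 SE and −3.79 ± 0.06 SE. Myc rose by 1.42 and Dusp4, a MAP kinase phosphatase, by 1.54. Klf6 rose by 1.52 and was not called between the siRNAs (−0.06 ± 0.05 SE). Clock genes had 7 of 15 higher (46.7%) and 6 lower (40%), also near the shares of all genes. Tef (1.93) and Cry1 (1.29) were among the increases, and in NC_siRNA 10 clock genes were higher and 2 lower. Their median of 0.13 was between 0.016 (without Hif1a_siRNA replicate 3) and 0.29 (without Control replicate 3) when a library was left out, and it was 0.051 without Control replicate 1, 0.058 without Control replicate 2 and 0.22 without Hif1a_siRNA replicate 2.

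Melanocyte genes had 8 of 18 higher (44.4%) and 8 lower (44.4%), with a median of −0.03, beside 39.5% and 37.6% of all genes. In NC_siRNA 4 were higher and 11 lower. Mitf, the lineage's master regulator, was measured at 31.4, 38.9 and 38.9 CPM in Control, 58.7, 56.8 and 56.01 in NC_siRNA and 80.4, 82.4 and 80.9 in Hif1a_siRNA, a change of 1.13 ± 0.08 SE. Tyr, the first enzyme of melanin synthesis, rose by 0.89, and was not called between NC_siRNA and Control (−0.08 ± 0.07 SE). Mlana, a melanosome protein, was measured at 465, 404 and 402 CPM in Control, 128, 128 and 135 in NC_siRNA and 143, 141 and 132 in Hif1a_siRNA. It fell by 1.64 against Control and was not called between the siRNAs (0.09 ± 0.06 SE). Pmel, which forms the melanosome's fibrils (−0.52), and Gpnmb, a melanosome glycoprotein (−1.07), fell, both less than in NC_siRNA (−1.70 and −1.37).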

How the data were processed

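RNA-seq read counts per gene were deposited by the authors as one table for each library, without normalization. Per the submitters' processing notes reads were handled with tools that included StringTie 2.1.3b, Bowtie2 2.3.4.1, HISAT2 2.1.0, Trimmomatic 0.38 and FastQC 0.11.7 on mouse build mm10; the counting options and strand setting are not given in the sources used here. Gene IDs were joined across tables, and symbols, coordinates and biotypes came from the deposited tables and RefSeq (1367 symbols from RefSeq, 20 IDs with none). Of the genes listed for Control, 278 are not listed for Hif1a_siRNA (highest mean 19.7 reads) and were left out. The deposited lists appear to be filtered already. All 12894 genes listed for Hif1a_siRNA had at least 10 reads in 3 or more of the 6 libraries of that group and Control. The same held for all 12819 genes listed for NC_siRNA, with Control. A further filter on low counts (10 reads, total 15) removed 0 genes.

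Counts were scaled by TMM and tested with edgeR 4.0.16 (R 4.3.3, limma 3.58.1) by the quasi-likelihood test in the 6 libraries without covariates, with Benjamini-Hochberg adjustment over 12894 genes and a threshold of 0.05; the biological coefficient of variation was 0.0705 on 4 residual degrees of freedom. A fit of 9 libraries gave the comparisons with NC_siRNA. Log2 CPM used a prior count of 2. A 2-group edgeR test of the same kind was tried on simulated counts in which few genes changed. It does not test the scaling in data where most genes are called, nor the 9-library fit.

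Alternatives were RLE and upper-quartile factors, DESeq2 1.42.0, voom, a stricter threshold or filter, protein-coding nuclear genes alone, all 15 libraries, a replicate term, and leaving out each library. Named genes were Hif1a, the 12 largest called changes each way with at least 5 CPM and no overlap between libraries (clone and pseudogene names left out), 6 genes shared with and 6 opposite to the negative control, and for each list its 4 members of smallest p, exceptions and members of known role. Some genes that this rule names are not reported here. Genes and lists were chosen with earlier results of these data known. Transcript lengths (GENCODE vM21) and promoters (RefSeq, GRCm38.p6) came from reference tables.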

Additional observations from a re-analysis of the deposited data

How the results depend on the processing

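Numbers of genes called higher and lower stayed within 1.5 times in every alternative run. Hif1a_siRNA against Control gave 4447 to 5190 higher and 4294 to 4962 lower over the alternatives other than leaving out a library, with 4949 higher and 4962 lower under RLE factors. Leaving out each library in turn gave 4753 to 5086 higher and 4535 to 4883 lower; for NC_siRNA against Control it gave 4385 to 4543 and 4122 to 4450, and for Hif1a_siRNA against NC_siRNA 4327 to 4825 and 4257 to 4732. The Hif1a change ranged from −3.79 to −3.66 when a library was left out. The libraries carry replicate numbers, but same-numbered libraries did not deviate together (correlations −0.046 to 0.022); with a replicate block, 5018 genes were higher and 4779 lower.

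Of the gene values tested under the alternatives, 3481 kept direction and side of the threshold, 56 lost and 4 gained a call. The lost calls included those of Siah2, Srebf2, Mki67, Bhlhe41, Narf, Aurkb, Kdm4c and Anln, all with log2 changes under 0.26, and all of these but Kdm4c and Anln lost it in at least 1 fit without a library. Genes that were not called changed sign: Ago2 was 0.0223 in the 15-library fit, Serpinh1 was −0.0228 and Tap2 was −0.0385 with protein-coding nuclear genes alone. When a library was left out, Ago2 ranged from −0.0873 to 0.0111, Tap2 from −0.163 to 0.235, Gbp2 from −0.0139 to 0.331 and Mmp2 from −0.337 to 0.0488. The cause was not tested. List medians moved by more than the spread between libraries in 104 of their alternatives, and the median of all genes ranged from −0.01 to 0.06. Lists with a median near 0 (NRF2 targets, melanocyte and mitochondrially encoded genes) changed sign. With a filter of 1 CPM the medians of clock and immediate early genes were 0.37 and 0.36, and with protein-coding nuclear genes alone 0.060 and 0.093. The RNA and DNA sensing median ranged from 0.25 to 0.66, the latter without Control replicate 3.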

Other observations

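Genes with 1 coding exon stood apart from other protein-coding genes against Control, a difference noticed after the values were seen. For the 502 such genes the median log2 fold change was 0.44 in Hif1a_siRNA and 0.42 in NC_siRNA, each against Control, and 0.01 between the siRNAs. For the 10212 genes with 2 or more coding exons the medians were 0.10, 0.06 and 0.01. Within 5 groups by transcript length, the medians of genes with 1 coding exon in Hif1a_siRNA against Control were −0.14, 0.41, 0.68, 0.66 and 0.98 from the shortest to the longest. Among the largest increases, the part of exon number was not tested.

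The 278 genes listed for Control and not for Hif1a_siRNA had a median of 6.33 mean reads in Control. That 0 of them had 10 reads in all 3 Control libraries would follow from the apparent filter of the deposited lists. It is therefore no separate result about these genes. They were 104 protein-coding genes, 67 lncRNAs, 64 pseudogenes and other types. Of these genes, 225 are also not listed for NC_siRNA and 53 are.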
